A study of Mesostigma viride with 16 samples.

Results

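*Mesostigma viride* strain NIES-296 cells kept at 12 °C for 24 h (Cold) were compared with untreated cells at 23 °C (Control 1) by RNA-seq. Cold had 2 libraries and Control 1 had 1 (replicate 2), so the comparison used 3 of the 15 libraries with values. The series names 16 samples, and the other Control 1 sample is not analysed here. *M. viride* is a single-celled charophyte alga of an early branch of the streptophytes, the lineage that holds the land plants. All 3 libraries came from the same strain in medium C at pH 7.5, grown at 23 °C under a light-dark cycle before treatment. Temperature is the difference that the methods name between the groups. They give 24 h for Cold and call Control 1 only untreated. Whether Control 1 was kept for the same further 24 h is not stated, so culture age and handling may also differ. The hour of harvest within the light-dark cycle is not given in the sources used here. Control 2, a second untreated group at 23 °C and pH 7.5 with 2 libraries, was grown as the reference for the pH treatments and served here as a check. The remaining libraries (darkness, high light, high temperature at 32 °C, low pH and high pH, 2 each) entered the filter on low values and the estimate of the spread between replicates, and served to place the named genes. High light was also compared directly with Cold.

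Expression was measured as FPKM, fragment numbers corrected for transcript length and for the size of the library, for 24431 genes in each library. FPKM are relative values within a library, so less RNA of a gene per cell and fewer cells in the state that expresses it cannot be told apart. The read depth behind each value is unknown from FPKM. The FPKM of all genes summed to 581790 and 578174 in Cold, 634510 in Control 1, and 611568 and 626030 in Control 2. The 100 most abundant genes of a library took 39.1% and 38.7% of this sum in Cold, against 46.2% in Control 1 and 44.7% and 46.2% in Control 2. The median FPKM of the tested genes was 7.14 and 7.28 in Cold, against 8.58 in Control 1 and 8.17 and 8.03 in Control 2. Cold libraries thus had a lower typical value per gene, and the calls are given on the deposited scale and after median-ratio scaling, in which each library is divided by the median of its gene-wise ratios to a common reference.

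Low temperature slows enzymes and membrane processes more than it slows the capture of light. Photosystem II of illuminated cells is then prone to damage, and its D1 protein is cut out and made anew in a repair cycle. In land plants, cold also destabilises microtubules, slows division and acts on transcription through factors such as those of the AP2/ERF and CAMTA families. The gene names used below are those of homologs, mostly from *Arabidopsis*, and the roles given for them are known from those species and not from *M. viride*.

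Of 14297 genes tested, 538 were higher and 1184 were lower in Cold than in Control 1 (limma, FDR of at most 0.01 by Benjamini-Hochberg and at least a 2-fold change on the log2(FPKM + 0.1) scale). These calls were 3.76% of tested genes in the upward and 8.28% in the downward direction, or 12% in all. Over all tested genes the median log2 fold change was -0.26. With scaling it was 0.00, and the split turned round, with 854 genes (5.97%) higher and 505 (3.53%) lower. All 538 genes called higher without scaling were also called higher with it, and 505 of the 1184 lower calls were kept. The excess of lower calls on the deposited scale was thus not kept under this scaling. The single Control 1 library is assumed in this test to have the same variance as the replicated conditions.

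Among genes higher in Cold, the median log2 fold change was 1.48, and 141 changed at least 4-fold and 33 at least 8-fold. Among genes lower in Cold it was -1.25, with 93 genes at least 4-fold and 16 at least 8-fold lower. The 2 Cold libraries were close to each other, with a median absolute difference of 0.10 on the log2 scale, against a median absolute fold change of 0.45 between Cold and Control 1. Higher calls were most frequent among abundant transcripts, with or without scaling. Of the 672 genes that averaged 100 FPKM or more over all libraries, 14.6% were called higher and 9.52% lower. Of the 5118 genes at 10 to 100 FPKM these shares were 6.1% and 5.69%, and of the 6916 genes at 1 to 10 FPKM they were 1.76% and 10.5%. Below 1 FPKM, 0.377% of 1591 genes were called higher and 6.54% lower. Lower calls were most frequent at 1 to 10 FPKM on the deposited scale, but at 100 FPKM and over after scaling, with 6.25% against 4.16% at 1 to 10 FPKM. The added 0.1 FPKM shrinks the fold changes of the least abundant genes most.

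**Figure D1:**
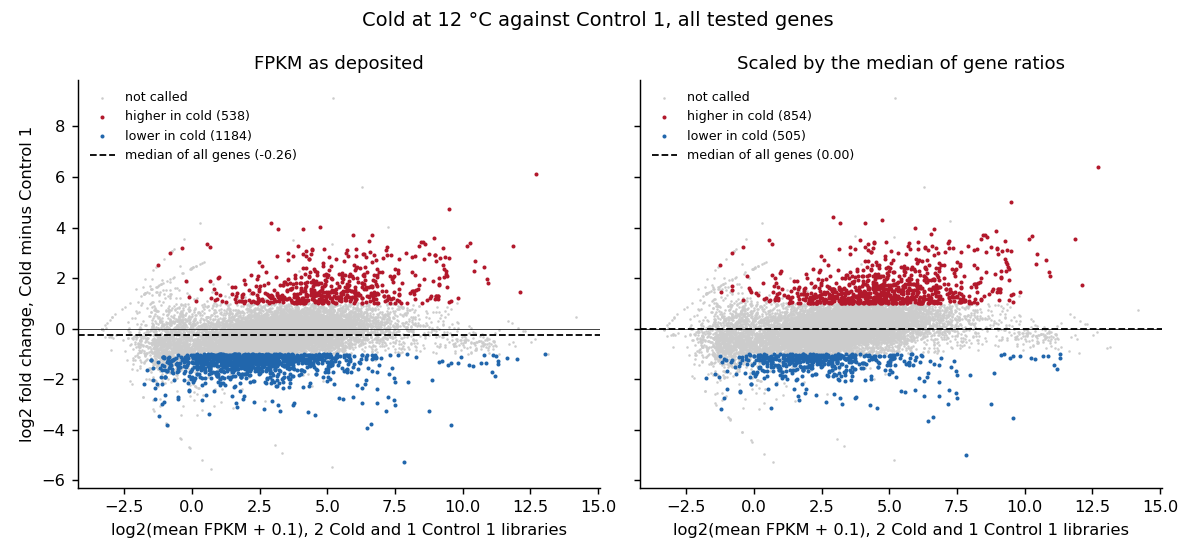
Log2 fold change of each of the 14297 tested genes between Cold (mean of 2 libraries) and Control 1 (1 library), plotted against log2 of the mean FPKM plus 0.1, on the deposited scale (left) and after median-ratio scaling (right). Red points are genes called higher and blue points genes called lower, and the dashed line, the median of all genes, moves to 0.00 from -0.26 with scaling.

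Among genes averaging 10 FPKM or more in Cold and Control 1, the largest called increases and decreases belonged to genes with no name in the annotation lists. Mv18926-RA had 10059 and 9702 FPKM in Cold, against 143 in Control 1 and 187 and 199 in Control 2. It was 68.9-fold higher than in Control 1 (log2 fold change 6.11, SE 0.08, adjusted p = 5.75e-12, limma). Mv20602-RA had 1114 and 1014 FPKM in Cold, against 39.6 in Control 1 and 46.7 and 44.0 in Control 2, a 26.9-fold increase over Control 1 (4.74, SE 0.12). Both genes lay far above every untreated library.

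Mv16633-RA fell furthest, with 12.9 and 22.7 FPKM in Cold, against 656 in Control 1 and 471 and 482 in Control 2 (log2 fold change -5.25, SE 0.23, adjusted p = 1.82e-08, limma). Mv00827-RA had 13.6 and 16.8 FPKM in Cold, against 232 in Control 1 and 61.3 and 65.9 in Control 2. Its log2 fold change was -3.93 against Control 1 and -2.07 against Control 2, so the size of this decrease depended on the control, while its direction did not. All 4 genes kept their calls after scaling, with log2 fold changes of 6.38, 5.02, -4.98 and -3.66 in the order given. The largest difference of all tested genes belonged to a gene listed at 0 in Control 1 and in 1 of the 2 Control 2 libraries but not in the other, and it did not pass the test.

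Functional groups were taken from annotation lists that the study made for *M. viride* genes. They name 451 genes, of which 419 were tested. Of these, 16 were called higher (3.82%) and 28 lower (6.68%) in Cold, near the 3.76% and 8.28% of all tested genes. After scaling they were 35 (8.35%, against 5.97%) and 10 (2.39%, against 3.53%). Their median log2 fold change was -0.13 (0.14 scaled), against -0.26 (0.00 scaled) for all tested genes. The other 1678 called genes are in none of the lists. The list with the largest share of higher calls was that of photosynthesis genes, with 4 of 11 tested genes (36.4%, against 3.76% of all genes). The cell division and cell wall list had 3 higher and 12 lower calls among 152 tested genes (1.97% and 7.89%, against 3.76% and 8.28% of all genes), and the transcription factor list 3 and 9 among 112 (2.68% and 8.04%). These shares of lower calls were near those of all genes.

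**Figure D2:**
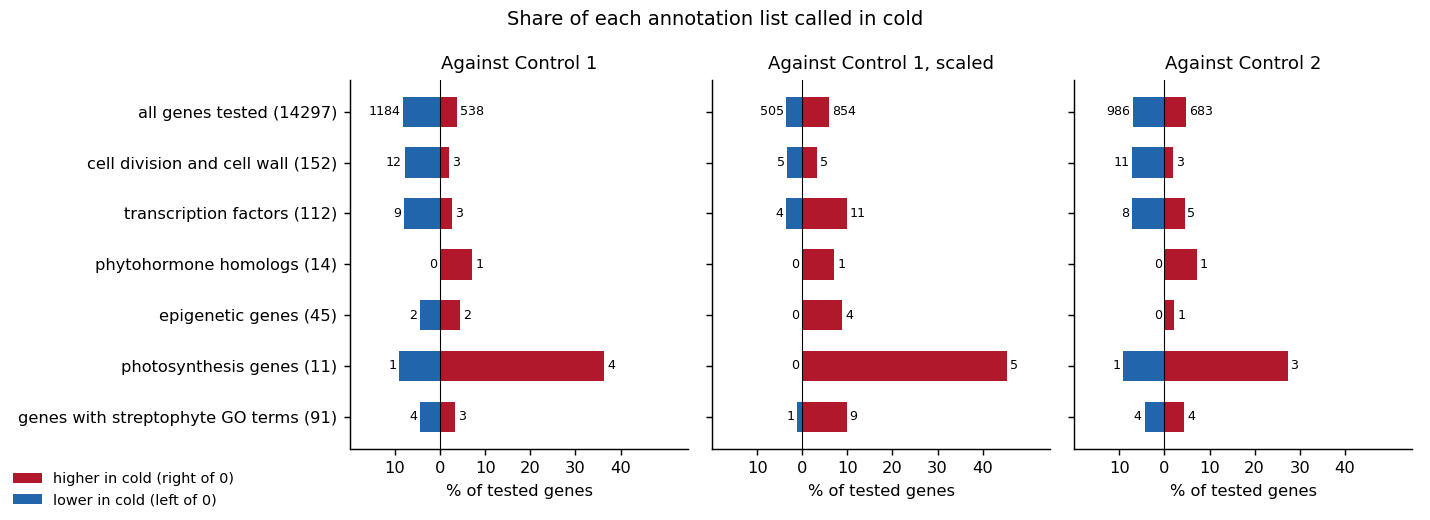
Percentage of the tested genes of each annotation list called higher (red, right of 0) or lower (blue, left of 0) in Cold against Control 1, against Control 1 after median-ratio scaling, and against Control 2. Numbers beside the bars are genes, numbers in brackets are the genes tested, and the photosynthesis list has the longest bars on the right, with 4, 5 and 3 genes.

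In the photosynthesis list, 2 genes of photosystem II maintenance rose most. Mv19820-RA is listed as VAR2/FTSH2, a subunit of the thylakoid FtsH protease that degrades damaged D1 protein. It had 865 and 824 FPKM in Cold, against 149 in Control 1 and 137 and 120 in Control 2. The increase over Control 1 was 5.68-fold (log2 fold change 2.50, SE 0.07, adjusted p = 8.71e-10, limma; 2.78 scaled). Mv13914-RA is listed as HCF173, which in *Arabidopsis* is needed for translation of the psbA mRNA, the template of D1. It had 46.0 and 45.1 FPKM in Cold, against 9.01 in Control 1 and 10.2 and 8.88 in Control 2, a 5.06-fold increase over Control 1 (2.33, SE 0.08, adjusted p = 3.80e-09; 2.59 scaled). Both genes act on D1 turnover in *Arabidopsis*, at its removal and at its synthesis, and their Cold values lay above all values of both controls.

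Genes of carbon and nitrogen exchange in this list did not all move the same way. Mv13545-RA, 1 of 2 homologs of the chloroplast aspartate aminotransferase ASP5, had 100.4 and 102 FPKM in Cold, against 32.5 in Control 1 and 47.5 and 45.8 in Control 2 (log2 fold change 1.64, adjusted p = 3.03e-07, limma; 1.91 scaled). The other homolog, Mv14894-RA, had 73.5 and 75.2 FPKM in Cold, against 65.0 in Control 1, and was not called (0.19, SE 0.07). With Cold, the called homolog thus became the more abundant of the pair. Mv04123-RA, listed as DTC, a mitochondrial carrier of dicarboxylates and tricarboxylates, had 383 and 357 FPKM in Cold, against 165 in Control 1 and 190 in each Control 2 library (1.17, SE 0.06; 1.44 scaled).

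Mv09135-RA, listed as malate dehydrogenase (MDH), had 272 and 254 FPKM in Cold, against 147 in Control 1 and 139 and 130 in Control 2. Its change, 0.84 on the log2 scale, stayed short of 2-fold and was called only after scaling (1.11, adjusted p = 1.25e-05, limma). Mv15086-RA, listed as the malic enzyme me2, was the only lower call of the list, with 17.4 and 17.1 FPKM in Cold, against 35.2 in Control 1 and 36.3 and 33.9 in Control 2. Its log2 fold change of -1.02 became -0.75 with scaling, and the call was lost.

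The remaining photosynthesis genes were close to Control 1. The blue light receptor homolog CRY1 (Mv08907-RA) had 11.1 and 11.5 FPKM in Cold, against 9.49 in Control 1 (log2 fold change 0.25). The small subunit homolog of ADP-glucose pyrophosphorylase, ADG1 (Mv04628-RA), which serves starch synthesis, had 148 FPKM in both Cold libraries, against 157 in Control 1 (-0.08). Phosphoenolpyruvate carboxylase PPC1 (Mv20570-RA) had 32.5 and 33.5 FPKM in Cold, against 32.1 in Control 1 (0.04). None of the 3 passed the test, and neither did GGT1 (Mv14619-RA), an aminotransferase of photorespiration, at 15.3 and 16.3 FPKM in Cold, against 14.7 in Control 1 (0.10). PPDK1 (Mv07582-RA), homolog of pyruvate phosphate dikinase, was too low to be tested, with 0.08 and 0.05 FPKM in Cold, against 0.11 in Control 1.

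A further plastid gene stood in the list of phytohormone homologs. Mv14100-RA is listed as ABA1, zeaxanthin epoxidase, an enzyme of the xanthophyll cycle and, in land plants, of abscisic acid synthesis. It had 370.0 and 372 FPKM in Cold, against 144 in Control 1 and 133 and 117 in Control 2, and was 2.58-fold higher than in Control 1 (log2 fold change 1.37, SE 0.07, adjusted p = 8.54e-08, limma; 1.64 scaled). It was the only called gene among the 14 tested members of this list (7.14% higher, against 3.76% of all genes). No auxin, cytokinin or ethylene homolog was called (10 tested), with or without scaling, and 12% of all genes were called without scaling.

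Among 91 tested genes with streptophyte GO terms, 3 were higher (3.30%) and 4 lower (4.40%) in Cold, shares at or below those of all genes. After scaling, 9 were higher (9.89%, against 5.97% of all genes) and 1 lower. Mv20784-RA, whose terms include brassinosteroid biosynthetic process, had 529 and 535 FPKM in Cold, against 78.6 in Control 1 and 101 and 107 in Control 2 (log2 fold change 2.76, SE 0.08; 3.03 scaled). Mv10383-RA, with the term chloroplast thylakoid membrane, moved the other way, with 85.9 and 84.9 FPKM in Cold, against 294 in Control 1 and 241 and 262 in Control 2 (-1.78, SE 0.07, adjusted p = 1.29e-08, limma; -1.51 scaled). In the plastid group of this list, 0 of 18 tested genes were called higher and 3 lower (16.7%, against 8.28% of all genes) without scaling. With it, 4 were higher (22.2%, against 5.97%) and 1 lower (5.56%, against 3.53%).

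Smaller changes were seen in Mv20016-RA (hydrolase activity), with 33.9 and 33.8 FPKM in Cold, against 16.5 in Control 1 and 19.7 and 19.9 in Control 2 (log2 fold change 1.03, 1.30 scaled). Mv09932-RA (cytosol) had 22.3 and 15.8 FPKM in Cold, against 9.13 in Control 1 and 8.34 and 12.04 in Control 2. Its log2 fold change was also 1.03, but with an SE of 0.27, and without Cold replicate 1 it was 0.78 and no longer called. Neither gene differed 2-fold from Control 2 on the deposited scale (0.77 and 0.90), and with scaling Mv09932-RA did (1.05) and Mv20016-RA did not (0.93).

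Genes annotated for temperature responses were examined whatever their call. Mv09805-RA, which carries the terms response to cold and ferredoxin-NADP+ reductase activity, was lower in Cold, with 35.3 and 35.4 FPKM, against 82.7 in Control 1 and 71.2 and 70.9 in Control 2. The log2 fold change was -1.22 (SE 0.08, adjusted p = 3.48e-07, limma) and -0.95 after scaling, which ended the call. Mv17255-RA, with the term heat acclimation, had 18.1 and 22.9 FPKM in Cold, against 19.3 in Control 1 (0.08), and was not called. Mv20019-RA, with the term isoamylase activity, that is, the debranching of starch, had 16.5 and 15.9 FPKM in Cold, against 10.7 in Control 1 and 8.40 and 7.49 in Control 2. It fell short of 2-fold against Control 1 (0.60) and passed against Control 2 (1.02, adjusted p = 1.08e-06).

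Of the transcription factors, 3 genes were called higher and 9 lower. Scaling raised the higher calls to 11 (9.82%, against 5.97% of all genes) and left 4 lower calls (3.57%, against 3.53%). The single gene of the NF-YA family (Mv16230-RA), a subunit of the CCAAT-box factor NF-Y, fell most among those called on both scales, with 17.7 and 19.3 FPKM in Cold, against 55.7 in Control 1 and 47.7 and 44.3 in Control 2 (log2 fold change -1.59, SE 0.08; -1.32 scaled). None of the 2 NF-YB and 3 NF-YC genes tested, which code for the partner subunits, was called. NF-YA was the only NF-Y subunit gene called, but 12% of all tested genes were called without scaling. So few genes cannot set the subunits apart from each other or from all genes.

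The bZIP family, leucine zipper factors, changed in both directions. Mv16600-RA had 70.9 and 72.2 FPKM in Cold, against 24.9 in Control 1 and 33.0 and 31.8 in Control 2 (log2 fold change 1.52, SE 0.10). Mv11124-RA had 11.98 and 13.5 FPKM in Cold, against 31.97 in Control 1 (-1.33, SE 0.15), and Mv08277-RA had 23.8 and 24.3 FPKM, against 59.5 (-1.30, SE 0.09). All 3 calls held after scaling (1.79, -1.05 and -1.03), and the other 7 tested members were not called on either scale. Of the 10 tested, 10% were called higher and 20% lower, against 3.76% and 8.28% of all genes (5.97% and 3.53% with scaling). A homeodomain gene, Mv09648-RA, rose to 11.3 and 11.7 FPKM in Cold, against 4.87 in Control 1 and 2.90 and 2.98 in Control 2 (1.23, SE 0.12; 1.49 scaled). The third higher call on both scales was a C2H2 zinc finger gene, Mv00503-RA, named after its values were seen, with 25.0 and 28.0 FPKM in Cold, against 11.8 in Control 1 (1.16). It was the only higher call of 16 C2H2 genes tested (6.25%, against 3.76% of all genes), and with scaling 4 were called higher (25%, against 5.97%).

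All 9 AP2/ERF genes were tested, and none was called higher on the deposited scale, where 3.76% of all genes were. Lower calls made up 22.2% of the 9, against 8.28% of all genes. After scaling, 11.1% were higher and 11.1% lower, against 5.97% and 3.53% of all genes. Mv13803-RA was by far the most abundant, with 1338 and 1317 FPKM in Cold, against 2719 in Control 1 and 2847 and 2946 in Control 2. Its log2 fold change was -1.03 (SE 0.05, adjusted p = 2.17e-08, limma), and -0.76 after scaling, which ended the call. Mv03756-RA had 4.75 and 5.42 FPKM in Cold, against 13.4 in Control 1 (-1.38; -1.11 scaled, still called). Mv14696-RA had 1.13 and 0.91 FPKM in Cold, against 0.32 in Control 1. Its difference of 1.40 had an SE of 0.41 and an adjusted p of 0.0172 (limma), and it passed only after scaling (1.60). The other 6 lay between -0.31 and 0.15 and were not called, so the family showed no common direction.

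The HSF, CAMTA and cold shock domain genes, families with known roles in temperature responses, held no call on either scale. Only 4 HSF and 2 CAMTA genes were tested, and 12% of all genes were called without scaling. So few genes cannot set these families apart from all genes. The 4 heat shock factor genes had log2 fold changes of 0.45 (Mv19848-RA), 0.09 (Mv20706-RA), -0.12 (Mv20172-RA) and -0.08 (Mv10352-RA), and 0.15 to 0.72 after scaling. Mv19848-RA, the most abundant, had 62.9 and 66.2 FPKM in Cold, against 47.3 in Control 1 and 51.6 and 51.3 in Control 2, a difference larger than the spread between replicates (adjusted p = 0.00119, limma) but below 2-fold. The 2 CAMTA genes, calmodulin-binding factors, were at -0.37 and -0.36 (-0.10 and -0.09 scaled). The single cold shock domain gene (Mv20329-RA) was too low to be tested, with 0.04 and 0.05 FPKM in Cold, against 0.10 in Control 1.

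In the cell division and cell wall list, the groups with the lowest medians were those of microtubules and the spindle. The group of tubulin, gamma-tubulin ring and augmin genes, which nucleate and build microtubules, had 17 tested members, all with a negative log2 fold change, and 15 with one after scaling (median -0.72; -0.45 scaled; all tested genes -0.26 and 0.00). Of these, 3 were called lower without scaling (17.6%, against 8.28% of all genes) and 1 with it (5.88%, against 3.53%). The group of microtubule-associated proteins had 11 of 12 members with a negative log2 fold change on both scales (median -0.81; -0.55 scaled), with 3 called lower (25%) and 2 of them also after scaling (16.7%). Against Control 2, the medians of these groups were -0.38 and -0.55, with 0 and 3 lower calls, against -0.12 for all tested genes. Of all 14297 tested genes, 9550 had a negative log2 fold change against Control 1, and 7094 after scaling. Against Control 2, 12 of the 17 genes of the tubulin group and 10 of the 12 microtubule-associated genes were negative, as were 8399 of all tested genes. The 12 kinesins, motor proteins, had a median of -0.38 (-0.11 scaled) and 1 lower call (8.33%, against 8.28% of all genes), which scaling ended.

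TPX2 (Mv17915-RA), a spindle assembly factor, had 6.13 and 5.92 FPKM in Cold, against 22.7 in Control 1 and 13.3 and 14.7 in Control 2 (log2 fold change -1.90, SE 0.11, adjusted p = 2.14e-07, limma; -1.63 scaled). FASS (Mv15322-RA), which in land plants organises the microtubule band that marks the division plane, had 1.24 and 1.54 FPKM in Cold, against 4.41 in Control 1 and 3.33 and 4.08 in Control 2 (-1.61, SE 0.21; -1.34 scaled). Both genes lay below all untreated libraries. A MAP65 homolog (Mv09783-RA), which bundles spindle microtubules and is named after its values were seen, had 1.66 and 1.70 FPKM in Cold, against 3.96 in Control 1 and 7.42 and 6.96 in Control 2 (-1.19; -0.92 scaled, where the call was lost).

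The tubulin gene Mv21576-RA showed how much a result can rest on the single Control 1 library. It had 235 and 223 FPKM in Cold, against 936 in Control 1, a log2 fold change of -2.03 (SE 0.41, adjusted p = 0.00219, limma). The 2 Control 2 libraries had 345 and 355 FPKM, and against them the difference was -0.61 and not called (adjusted p = 0.153). Control 1 thus stood apart from every other untreated library in this gene, and without Cold replicate 2 the call was also lost (-1.99). The gene also varied within a condition, with 260 and 753 FPKM in the 2 high light libraries, so high values were not confined to Control 1. The 2 further tubulin genes of the list, listed as beta-6 chain homologs (Mv08461-RA and Mv13535-RA), had log2 fold changes of -0.08 and -0.04. Reads of similar tubulin copies could be split between them by the counting. How alike these copies are and how their reads were assigned was not tested, and the values of single tubulin genes carry this uncertainty.

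Among 29 tested genes of the cell cycle and mitotic kinases, 1 was called higher (3.45%, against 3.76% of all genes) and 5 lower (17.2%, against 8.28%). After scaling, 2 were higher (6.9%, against 5.97%) and 2 lower (6.9%, against 3.53%). Mv14758-RA, a homolog of the cyclin-dependent kinases CDKA;1 and CDKB2;1, which drive the cell cycle, rose to 30.2 and 28.8 FPKM in Cold, against 8.58 in Control 1 and 8.77 and 9.87 in Control 2 (log2 fold change 1.77, SE 0.11, adjusted p = 3.91e-07, limma; 2.04 scaled). A mitotic cyclin homolog moved the other way. Mv06860-RA, listed under CYCA1;1 and CYCB1;2, had 5.71 and 5.09 FPKM in Cold, against 17.5 in Control 1 and 17.2 and 19.3 in Control 2 (-1.68, SE 0.15; -1.41 scaled). The Aurora kinase homolog Mv07940-RA, which acts on chromosomes in mitosis, had 2.47 and 3.12 FPKM in Cold, against 9.06 in Control 1 and 15.8 and 15.6 in Control 2 (-1.67, SE 0.13; -1.40 scaled).

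The other 3 lower calls of this group were lost with scaling, and they are named after their values were seen. A second Aurora kinase homolog (Mv02252-RA) had 4.36 and 4.24 FPKM in Cold, against 9.05 in Control 1 (log2 fold change -1.05), and an ANP kinase homolog (Mv10329-RA) had 0.60 and 0.84 FPKM, against 1.62 (-1.08). A CYCA1;1 homolog (Mv18326-RA) had 21.3 and 18.8 FPKM in Cold, against 47.0 in Control 1 (-1.23). Its Control 2 values were 16.4 and 19.3 FPKM, and it did not differ from Control 2 at the thresholds (0.17). In this gene, as in the tubulin gene Mv21576-RA, Control 1 lay far above both Control 2 libraries.

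The remaining groups of the list held few calls. Of 43 tested genes of vesicle traffic and the exocyst, 1 was higher (2.33%, against 3.76% of all genes) and none lower (against 8.28%). Their median was -0.01 (0.26 scaled), and of 10 cell wall genes none was called. The called vesicle gene was Mv13915-RA, a homolog of the dynamin DRP1A, with 10.7 and 11.3 FPKM in Cold, against 4.33 in Control 1 (log2 fold change 1.32). Of 3 plastid division genes, MIND (Mv07662-RA), which positions the plastid division ring, rose to 87.2 and 81.2 FPKM in Cold, against 33.6 in Control 1 and 36.9 and 34.3 in Control 2 (1.32, SE 0.10). MIND was the only call of this group (33.3% higher, against 3.76% of all genes). Its partner MINE1 (Mv19940-RA) was at -0.22 and not called. These genes, too, are named after their values were seen. The 4 E2F genes, factors that switch on genes of DNA replication, were all below Control 1, at -0.83 to -0.30 with all 4 also negative after scaling, but none was called on either scale. Of all 14297 tested genes, 9550 were negative, and 7094 after scaling. The 10 cell wall genes and the 4 E2F genes are too few to be set apart from all genes, of which 12% were called without scaling.

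**Figure D3:**
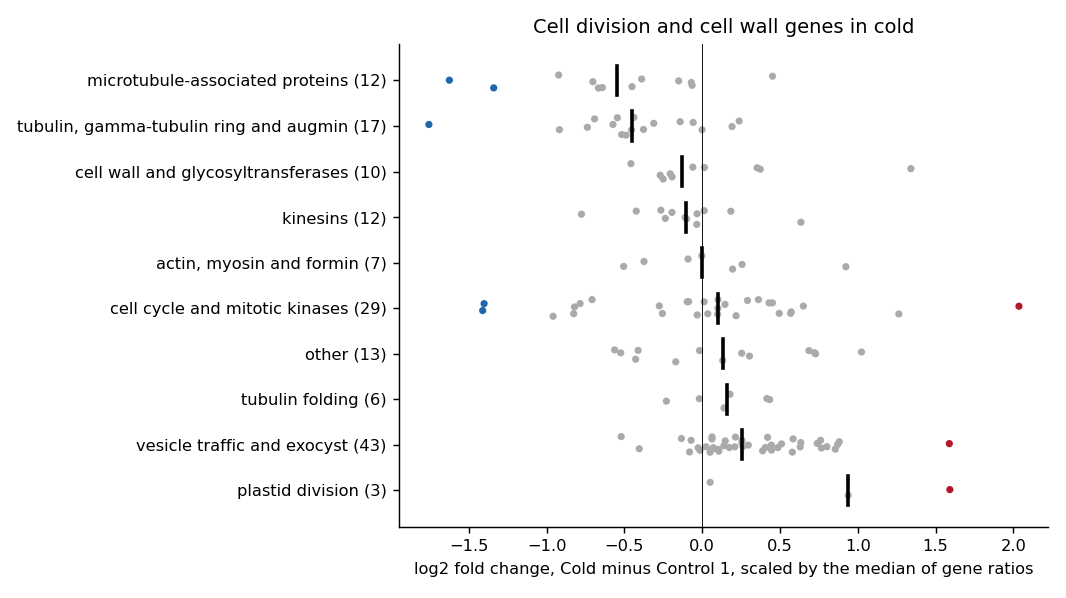
Log2 fold change between Cold and Control 1 after median-ratio scaling for each tested gene of the cell division and cell wall list, by functional group (number of genes tested in brackets). Red and blue points are genes called higher and lower on both scales, grey points are all others, and black bars are group medians, which lie lowest for microtubule-associated proteins (-0.55) and for tubulin, gamma-tubulin ring and augmin genes (-0.45).

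Among 45 tested epigenetic genes, 2 were higher (4.44%, against 3.76% of all genes) and 2 lower (4.44%, against 8.28%) in Cold. After scaling, 4 were higher (8.89%, against 5.97%) and 0 lower (against 3.53%). HST (Mv00726-RA), homolog of the exportin that takes part in microRNA maturation in *Arabidopsis*, had 33.9 and 32.8 FPKM in Cold, against 7.49 in Control 1 and 6.20 and 6.45 in Control 2. It was 4.45-fold higher than in Control 1 (log2 fold change 2.14, SE 0.11, adjusted p = 7.63e-08, limma; 2.41 scaled). DCL1 (Mv09111-RA), the homolog of the nuclease that cuts microRNA precursors, was lower, with 2.56 and 2.33 FPKM in Cold, against 5.42 in Control 1 and 4.26 and 3.48 in Control 2 (-1.12), and its call was lost with scaling (-0.85). Of the 10 small RNA genes tested, 10% were called higher and 10% lower on the deposited scale, against 3.76% and 8.28% of all genes. Only the call of HST held after scaling (10% higher, against 5.97% of all genes).

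PRMT1A (Mv11286-RA), homolog of a protein arginine methyltransferase, had 127 FPKM in both Cold libraries, against 57.8 in Control 1 and 67.7 and 64.9 in Control 2 (log2 fold change 1.13, SE 0.08, adjusted p = 8.54e-07, limma; 1.40 scaled). Against Control 2, the difference was 0.93 and missed the 2-fold threshold, which it passed after scaling (1.09, adjusted p = 2.72e-07, limma). The second lower call was EFS (Mv10940-RA), homolog of a histone H3 lysine methyltransferase, with 6.28 and 6.74 FPKM in Cold, against 13.9 in Control 1 (-1.09; -0.81 scaled, not called). DCL1 and EFS are named after their values were seen. The other 5 arginine methylation genes and the other 8 histone lysine methylation genes tested were not called on either scale. On the deposited scale, 16.7% of the arginine group was thus higher (against 3.76% of all genes). In the lysine group 11.1% was lower (against 8.28%).

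None of the 4 DNA methylation genes was called, and for 3 of them the direction turned with the control. With 12% of all genes called without scaling, so few genes cannot be set apart from all genes. The homolog of CMT3 and MET1 (Mv09173-RA), DNA methyltransferases, had 15.7 and 16.5 FPKM in Cold, against 21.9 in Control 1 and 10.5 and 9.53 in Control 2. Its log2 fold change was -0.44 against Control 1 and 0.68 against Control 2. For 1 of the 2 DMT2 homologs (Mv19944-RA) the values were -0.30 and 0.31, and for VIM1 (Mv14270-RA), a cofactor of DNA methylation, -0.17 and 0.42. VIM1 also turned positive with scaling (0.10). The other DMT2 homolog (Mv12885-RA) was lower against both controls, at -0.72 and -0.43, without passing the test.

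As a check, Cold was compared with Control 2. There, 683 genes were higher (4.78%) and 986 lower (6.9%), and 904 (6.32%) and 661 (4.62%) after scaling, with a median log2 fold change of -0.12 on the deposited scale. Both comparisons share the Cold libraries, so they are not independent. Of the genes higher than in Control 1, 456 (84.8%) were also called higher against Control 2, and of the genes lower than in Control 1, 604 (51%). With the further condition that the calls held after scaling, 456 higher and 314 lower genes remained. In 36 genes the calls against the 2 controls had opposite directions. The controls themselves differed in 485 genes (3.39%), of which 25 were higher and 460 lower in Control 2 than in Control 1.

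The rule for naming genes gave 27 genes called on both scales, 15 higher and 12 lower. In all 15, both Cold libraries lay above all 3 untreated libraries, and in all 12 below them. The position against Control 1 largely follows from the rule, which chose genes by their change against it. Control 2 was not part of the rule, but both comparisons use the same 2 Cold libraries, and the rule chose large changes. Agreement with Control 2 is therefore partly built in. Among all genes called against Control 1 on the deposited scale, 84.8% of the higher and 51% of the lower were also called so against Control 2. Of the 27, 22 were also called in the same direction against Control 2. The 5 that were not are DTC, PRMT1A, Mv20016-RA, Mv09932-RA and the tubulin gene Mv21576-RA, whose log2 fold changes against Control 2 were 0.96, 0.93, 0.77, 0.90 and -0.61. The first 4 missed only the 2-fold threshold, and with scaling DTC (1.12), PRMT1A (1.09) and Mv09932-RA (1.05) were called, while the bZIP gene Mv08277-RA no longer was (-0.87).

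**Figure D4:**
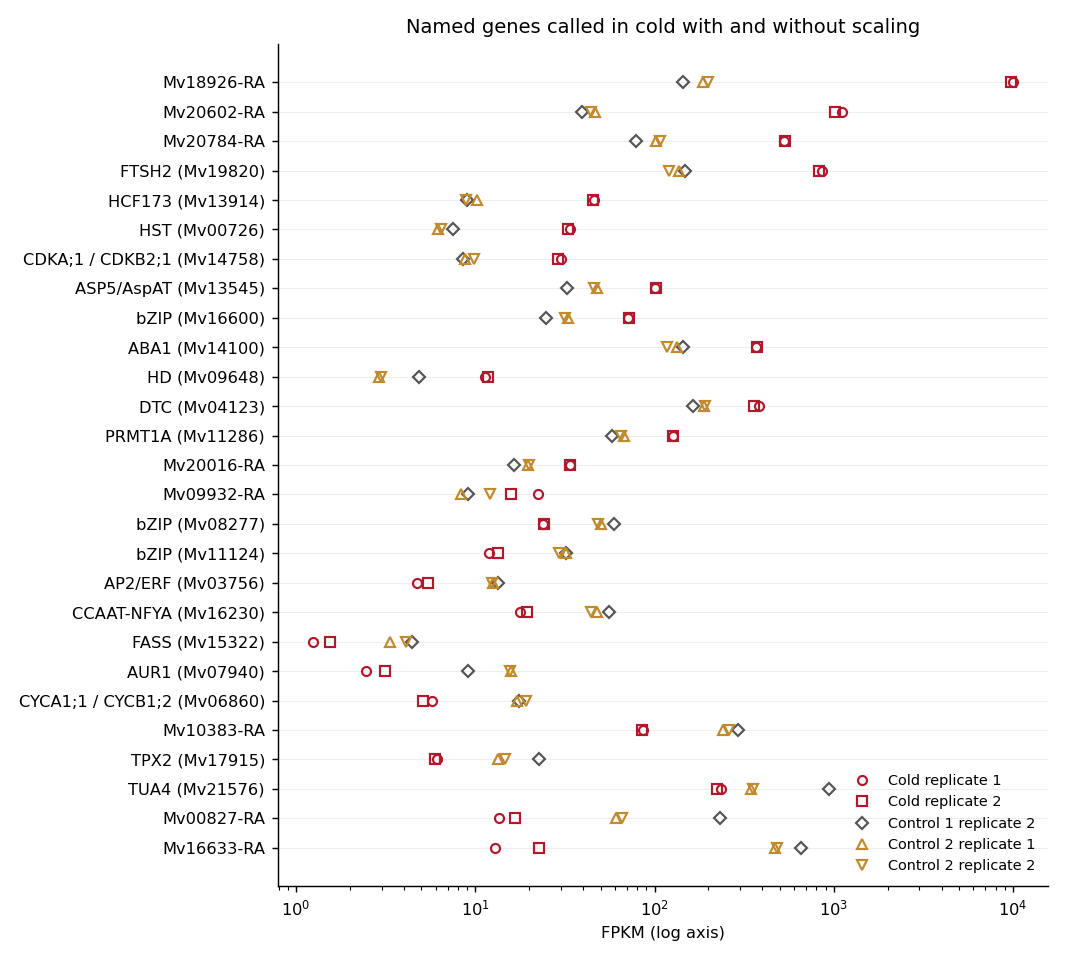
FPKM (log axis) of the 27 named genes called on both scales, in each of the 2 Cold libraries (red), the Control 1 library (grey) and the 2 Control 2 libraries (ochre). The Cold points lie to the right of all untreated points in the upper 15 genes and to their left in the lower 12, and Control 1 lies far from Control 2 in the tubulin gene Mv21576-RA, with 936 against 345 and 355 FPKM.

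The levels of these genes in the other conditions place the change in cold within the range of the study. On the deposited scale, Cold had the highest mean of the 8 conditions in 8 of the 15 higher genes, and after scaling in 6. FTSH2 had 845 FPKM in Cold, 784 in high light, 728 at high temperature and 66.9 in darkness, and with scaling its high temperature value was the highest. In 11 of these 15 genes darkness had the lowest mean on both scales. ASP5 (Mv13545-RA) had 101 FPKM in Cold, 89.3 in high light and 12.7 at high temperature, and PRMT1A had 127 in Cold, 69.9 in high light and 14.4 at high temperature. Set directly against high light, Cold differed in 93 genes (0.65% of those tested), and the only one of the 27 among them was Mv00827-RA. In HCF173, Cold was below high temperature, with 45.5 FPKM in the cold against 78.1 at high temperature.

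Of the 12 lower genes, 4 had their lowest mean in Cold on the deposited scale, namely NF-YA, bZIP Mv08277-RA, Mv16633-RA and Mv00827-RA. After scaling it was again 4, with the AP2/ERF gene Mv03756-RA in place of bZIP Mv08277-RA. High temperature was lowest and Cold the next in 7 genes on the deposited scale and in 4 after scaling. The bZIP gene Mv08277-RA had 24.03 FPKM in Cold, 25.1 in high light and 88.2 in darkness. TPX2 had 6.03 FPKM in Cold, 8.87 in high light, 10.7 in darkness and 0.61 at high temperature. The cyclin gene Mv06860-RA had 5.40 FPKM in Cold and 0.94 at high temperature, and in both genes Cold stayed above high temperature after scaling.

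**Figure D5:**
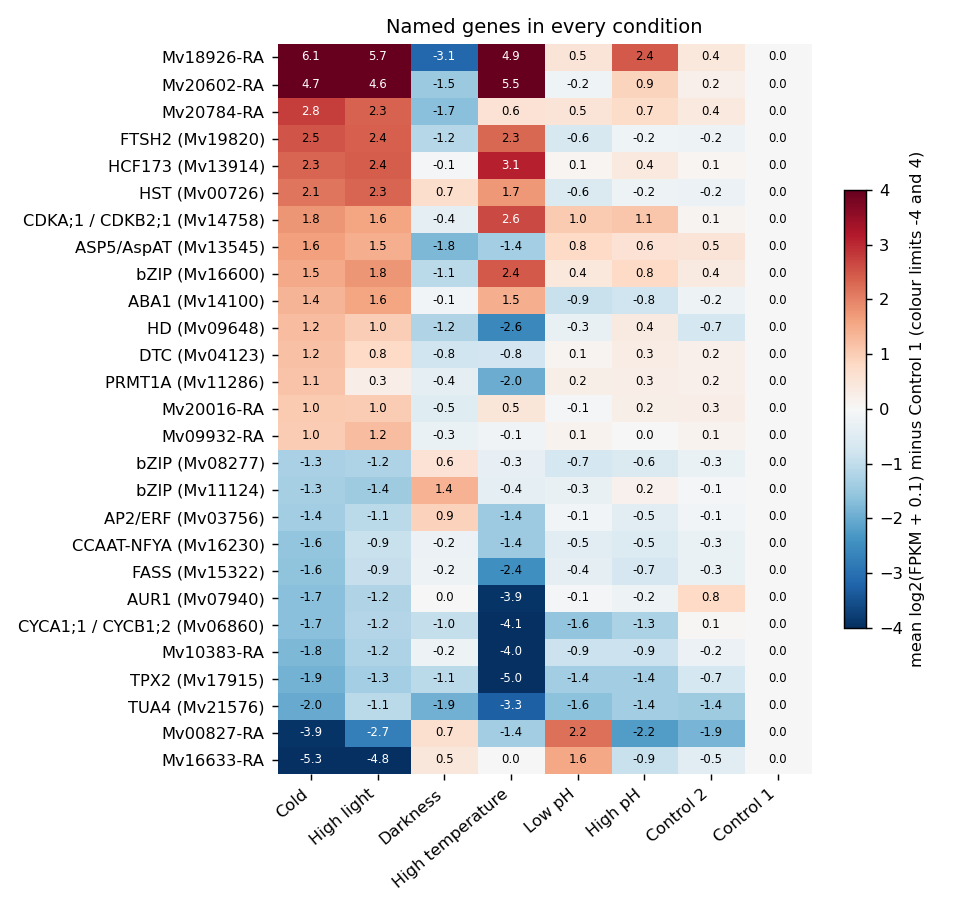
Mean log2(FPKM + 0.1) of the 27 named genes in each of the 8 conditions minus that in Control 1, without scaling, with the value in each cell. Colours are capped at -4 and 4, Control 1 rests on 1 library and all other conditions on 2, and the Cold column runs from 6.1 for Mv18926-RA to -5.3 for Mv16633-RA.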

How the data were processed

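RNA-seq libraries were made from poly(A) RNA with a stranded kit and sequenced in pairs. The authors filtered reads (FastQC), mapped them to their *M. viride* assembly with Hisat2 2.1.0 and calculated FPKM values with Cufflinks, and these FPKM were deposited for 24431 genes per library. The authors' own lists of changed genes (DESeq2) were not used, and read counts were not analysed here. FPKM carry no depth, so precision was taken from the spread between replicates.

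The test covered the 14297 genes that reached 0.5 FPKM in 2 or more of 15 libraries. On log2(FPKM + 0.1), a model with 1 mean per condition was fitted to all 15 libraries with limma 3.58.1 (R 4.3.3), using an intensity-dependent prior on the variance (7 residual and 3.58 prior degrees of freedom). Calls needed an FDR of at most 0.01 (Benjamini-Hochberg) and at least a 2-fold change, the thresholds of the study. P-values are two-sided and rest on the spread between libraries of the replicated conditions and on the prior. The single Control 1 library adds nothing to this estimate, so they do not measure the spread between Control 1 cultures. Scaling divided each library by its median gene ratio. The fit was also run on simulated data with known changes. All simulated libraries shared a common mean per gene apart from these changes. That run therefore could not show the effect of a shift between libraries or of an unusual Control 1 library. Figures were drawn with matplotlib 3.10.9.

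Gene lists came from the study's annotation, and members and lists were chosen with earlier results of these data known. Named genes were, per list, up to 6 with the largest change among those called with and without scaling. Also named were all photosynthesis, DNA methylation, HSF, AP2/ERF, CAMTA and CSD genes, genes with the terms response to cold, heat acclimation and isoamylase activity, and the 2 called genes that rose and the 2 that fell most at a mean of at least 10 FPKM. Alternatives were other pseudocounts, minimums, scalings, thresholds, controls and priors, a replicate block, fits on fewer groups and leaving out each library.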

Additional observations from a re-analysis of the deposited data

How the results depend on the processing

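Against Control 1, 538 genes were higher and 1184 lower. The count of higher genes moved by over 1.5 times only with median-ratio scaling (854). The count of lower genes fell to 660 with a pseudocount of 1 FPKM, 505 with median-ratio scaling, 721 with the upper quartile, 593 with quantile normalization and 364 in a fit to the compared groups only, where fewer libraries estimate the spread. Against Control 2, the count of lower genes was 593 with a pseudocount of 1 FPKM, against 986 in the reported analysis, and no other count there moved so far. Leaving out 1 Cold library gave 516 to 534 higher and 1053 to 1107 lower genes against Control 1. Leaving out 1 Cold or Control 2 library gave 628 to 672 higher and 903 to 1007 lower genes against Control 2. With the replicate number as a block, 533 genes were higher and 1159 lower than in Control 1, and of the named genes only Mv09932-RA lost its call (0.95). Cold and Control 1 share only the number 2, and replicate differences of Cold and Control 2 correlated at -0.05 across genes, so the numbers were not taken as pairs. Leaving out the Control 1 library leaves no comparison.

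No named gene that was called against Control 1 changed sign under any alternative run. Calls needed at least a 2-fold change, so this was largely set by the threshold. Some calls were lost. With quantile normalization these were PRMT1A (0.96), DTC (0.93) and Mv13803-RA (-0.50), and with a pseudocount of 1 FPKM Mv20016-RA (0.99), Mv09932-RA (0.96) and Mv15086-RA (-0.98). The fit to the compared groups only lost Mv07940-RA, Mv15322-RA, Mv03756-RA and Mv09932-RA. Mv09932-RA lost its call in 7 of 18 alternative runs. Changes of sign were confined to named genes that were not called, and the cause was not tested. With median-ratio scaling, log2 fold changes were 0.19 (Mv04628-RA), 0.10 (Mv14270-RA), 0.15 (Mv20172-RA), 0.19 (Mv10352-RA) and 0.13 (Mv18901-RA). With the upper quartile, they were 0.076 (Mv04628-RA), 0.034 (Mv20172-RA), 0.074 (Mv10352-RA) and 0.024 (Mv18901-RA), and with equal totals 0.049 (Mv04628-RA), 0.0072 (Mv20172-RA) and 0.048 (Mv10352-RA). With quantile normalization, they were -8e-04 (Mv14894-RA), 0.016 (Mv20172-RA), 0.29 (Mv10352-RA), 0.26 (Mv06093-RA), 0.44 (Mv18901-RA), 0.21 (Mv12877-RA) and 0.0092 (Mv06181-RA). With all untreated libraries together, they were 0.12 (Mv04628-RA), -0.15 (Mv14619-RA), 0.31 (Mv09173-RA), 0.11 (Mv19944-RA), 0.23 (Mv14270-RA), -0.22 (Mv09808-RA), 0.35 (Mv06093-RA), 0.16 (Mv18901-RA) and 0.041 (Mv12877-RA). With Control 2 in place of Control 1, they were 0.22 (Mv04628-RA), -0.28 (Mv14619-RA), 0.68 (Mv09173-RA), 0.31 (Mv19944-RA), 0.42 (Mv14270-RA), 0.0094 (Mv20172-RA), -0.41 (Mv09808-RA), 0.67 (Mv06093-RA), 0.30 (Mv18901-RA), 0.22 (Mv12877-RA) and -0.021 (Mv17255-RA). Without Cold replicate 1, Mv18901-RA was at 0.037, and without Cold replicate 2, Mv16340-RA was at -5e-04 and Mv17255-RA at -0.093 (0.25 without Cold replicate 1).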

Other observations

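Cold and high light were set against each other directly, a comparison of means that uses no control library. The filter on low values, the scaling and the estimate of the spread still came from the fit to all 15 libraries. At the same thresholds 93 genes differed (0.65% of tested genes; limma), 16 higher and 77 lower in Cold, and 27 and 45 after scaling. Of the 27 named genes called on both scales, 1 differed at these thresholds, Mv00827-RA, with a mean of 15.2 FPKM in Cold, against 34.98 in high light (log2 fold change -1.21). A call that was not made does not show that a gene was at the same level. PRMT1A was 0.86 higher in Cold than in high light (adjusted p = 1.73e-05, limma), and the AP2/ERF gene Mv13803-RA was at -0.74 (adjusted p = 1.87e-06, limma), both below 2-fold. FTSH2 was at 0.11 (SE 0.06) and HCF173 at -0.11 (SE 0.07).

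Some tested genes were listed at 0 in 1 of the groups. In Control 1, 17 genes were listed at 0 that were above 0 in both Cold libraries, and 21 were listed at 0 in both Cold libraries and above 0 in Control 1. A further 29 were listed at 0 in all 3. An exact 0 in these files can be a failed estimate, so none of them is named.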
